A study of Homo sapiens with 62 samples.

Results

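The 36 genes described here are genes known to be imprinted in human tissues. They were taken by name from the gene tables, and all 36 were found, among 58735 genes in 4 cell lines and 48162 genes in the A2780 line, whose tables use another annotation. Messenger RNA was counted in 62 libraries of 16 groups from 5 human cell lines. The lines were A2058 (melanoma), HCT116 (colorectal cancer), AGS (gastric adenocarcinoma), A2780 (ovarian cancer) and MCF10A (breast epithelium, not cancerous). The study compared cells that carry an extra copy of a chromosome arm with clones grown from single cells after that copy had been removed. The removal methods are together called ReDACT. Parental A2058 cells (WT, 4 libraries) carry gains of 1q, 7p and 8q. They were compared with 1q-loss cells (4 libraries of 2 clones), 7p-loss cells (6 libraries of 3 clones) and 8q-loss cells (4 libraries of 2 clones). HCT116 WT cells (2 libraries, gain of 8q) were compared with 8q-loss cells (4 libraries of 2 clones). AGS cells with the 1q gain comprised 1 WT library and 2 libraries of clones with a TK+ integrant, and were compared with 5 1q-loss clones of 1 library each. A2780 cells with the 1q gain comprised 2 WT and 2 TK+ libraries, compared with 6 libraries of 3 1q-loss clones. MCF10A cells were studied with and without expression of hRASV12, an oncogenic form of Ras. Each of these settings had 2 WT libraries and 8 libraries of 4 clones with the extra 1q copy removed. Per the labels, clones of A2058 and HCT116 were made by the version called ReDACT-CO, and those of A2780 by ReDACT-NS. AGS clone 11 and clone 4 of MCF10A were made by ReDACT-CO, the other AGS clones by ReDACT-NS and the other MCF10A clones by ReDACT-TR.

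An imprinted gene is transcribed mainly from the copy inherited from 1 parent. DNA methylation laid down in the egg or sperm marks only 1 parental copy of a control region and is kept through cell division. Many of the genes sit in clusters that share 1 control region, such as the region between IGF2 and H19 or the KCNQ1OT1 promoter. Several regulate growth: paternally expressed genes such as IGF2, MEST and PEG10 are known as growth promoters of the embryo and placenta. Maternally expressed genes such as H19, CDKN1C, PHLDA2, GRB10 and IGF2R are known as growth restrainers. Altered methylation of these regions is common in cancer cell lines. The counts here add both parental copies of a gene, so they do not show which copy was transcribed. In bulk RNA, fewer cells with a transcript and less of it per cell cannot be told apart.

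Libraries held between 15042068 and 30984036 counted reads. Levels are CPM, the reads of a gene relative to the total of its library, scaled with TMM within a line, so levels in different lines are set side by side as a description only. Markers of the labelled cell type were present in A2058 WT (all 6 melanocyte markers at a mean of at least 1 CPM), AGS WT and MCF10A WT. In HCT116 WT, all 4 simple epithelial markers (KRT8, KRT18, EPCAM and CDH1) reached a mean of at least 1 CPM. Of 5 intestinal markers, CDX2 and EPCAM did so there, while CDX1, VIL1 and CDH17 had at most 3 counts. CDX1 had at most 3 counts in AGS WT too. In A2780 WT, none of 4 ovarian markers reached a mean of 1 CPM, and WT1, MUC16 and EMX2 had at most 3 counts in both libraries. Both HCT116 WT libraries differed from each other: PHLDA2, for example, was at 560.0 and 299.0 CPM in them. The labels call the MCF10A libraries biological replicates and say nothing of this kind for the other lines. Libraries of 1 clone share their cells of origin, so the p-values measure the spread between these libraries, part of which may be technical.

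The sequence before the start site is shown for 5 members, picked after their values were seen for their large differences within a line, because methylation acts at the CpG dinucleotides of such regions. The RefSeq promoter table (GRCh38.p14) had entries for 20 of the 36 members, with 47 start sites. Each sequence is the 250 bases before a start site, 5′ to 3′ on the strand of the gene. Where a gene had several start sites, the window with the most CpGs that overlaps no annotated coding or untranslated exon was taken. Exons of noncoding transcripts were not checked, and most of the H19 window lies inside the gene model of H19 used for counting. Every CG is in capitals. The windows are chr11:2001267-2001516 (minus strand) for H19, chr7:130491808-130492057 (plus) for MEST, chr6:144064600-144064849 (minus) for PLAGL1, chr2:206274413-206274662 (plus) for ZDBF2 and chr7:50782897-50783146 (minus) for GRB10.
H19: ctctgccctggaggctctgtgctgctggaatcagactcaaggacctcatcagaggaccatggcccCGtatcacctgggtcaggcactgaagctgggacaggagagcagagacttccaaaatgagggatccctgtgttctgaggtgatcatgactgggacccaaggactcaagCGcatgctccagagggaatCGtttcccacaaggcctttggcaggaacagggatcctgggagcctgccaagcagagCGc
MEST: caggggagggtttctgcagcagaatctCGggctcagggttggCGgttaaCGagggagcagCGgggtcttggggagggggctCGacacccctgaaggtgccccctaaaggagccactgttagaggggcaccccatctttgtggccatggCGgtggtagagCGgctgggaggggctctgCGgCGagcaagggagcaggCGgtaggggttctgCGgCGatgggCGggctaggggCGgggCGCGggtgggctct
PLAGL1: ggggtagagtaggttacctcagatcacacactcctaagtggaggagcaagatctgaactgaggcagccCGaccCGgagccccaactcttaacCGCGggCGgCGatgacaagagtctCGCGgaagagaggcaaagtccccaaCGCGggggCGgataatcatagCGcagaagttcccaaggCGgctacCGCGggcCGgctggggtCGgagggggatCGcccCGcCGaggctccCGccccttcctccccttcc
ZDBF2: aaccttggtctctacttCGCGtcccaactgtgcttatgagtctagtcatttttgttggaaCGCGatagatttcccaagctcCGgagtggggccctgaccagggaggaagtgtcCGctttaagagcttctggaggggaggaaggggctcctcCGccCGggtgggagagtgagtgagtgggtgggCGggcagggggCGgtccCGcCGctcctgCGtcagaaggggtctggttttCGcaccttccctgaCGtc
GRB10: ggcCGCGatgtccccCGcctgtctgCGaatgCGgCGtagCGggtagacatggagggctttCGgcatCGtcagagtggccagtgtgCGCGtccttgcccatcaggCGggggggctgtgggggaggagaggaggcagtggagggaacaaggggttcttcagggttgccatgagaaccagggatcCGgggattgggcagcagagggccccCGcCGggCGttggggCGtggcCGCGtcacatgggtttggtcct
The H19 window held 4 CpGs and those of MEST, PLAGL1, ZDBF2 and GRB10 held 16, 21, 15 and 19. The median was 13 over all 47 member start sites and 11 over all 35116 start sites in the table. Windows of genes with several start sites were picked for the most CpGs, so higher numbers there are built in. The hexamer TGCCGC, known as the core of the sites bound by the imprint-keeping factor ZFP57, was searched on both strands. It was in 14 of the 47 member windows (29.8%), at 10 members, and in 12.7% of all windows. It was in none of the 5 windows shown, but was in windows of other start sites of MEST, PLAGL1, ZDBF2 and GRB10. Start sites of 1 gene can overlap, so these are descriptions of letters and not of binding.

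Levels of the 36 genes differed widely between the lines. In total, 11 genes were at 1 CPM or more in every WT library of all 5 lines: CDKN1C, PHLDA2, SLC22A18, GRB10, L3MBTL1, GNAS, BLCAP, IGF2R, ZNF597, TRAPPC9 and INPP5F. At the other end, MEG3, PEG3, MAGEL2 and ZIM2 stayed under 10 counts in each of the 62 libraries. The number of members with 10 or more counts in any library was 29 in A2058, 27 in HCT116, 18 in AGS, 26 in A2780 and 23 in MCF10A.

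**Figure D1:**
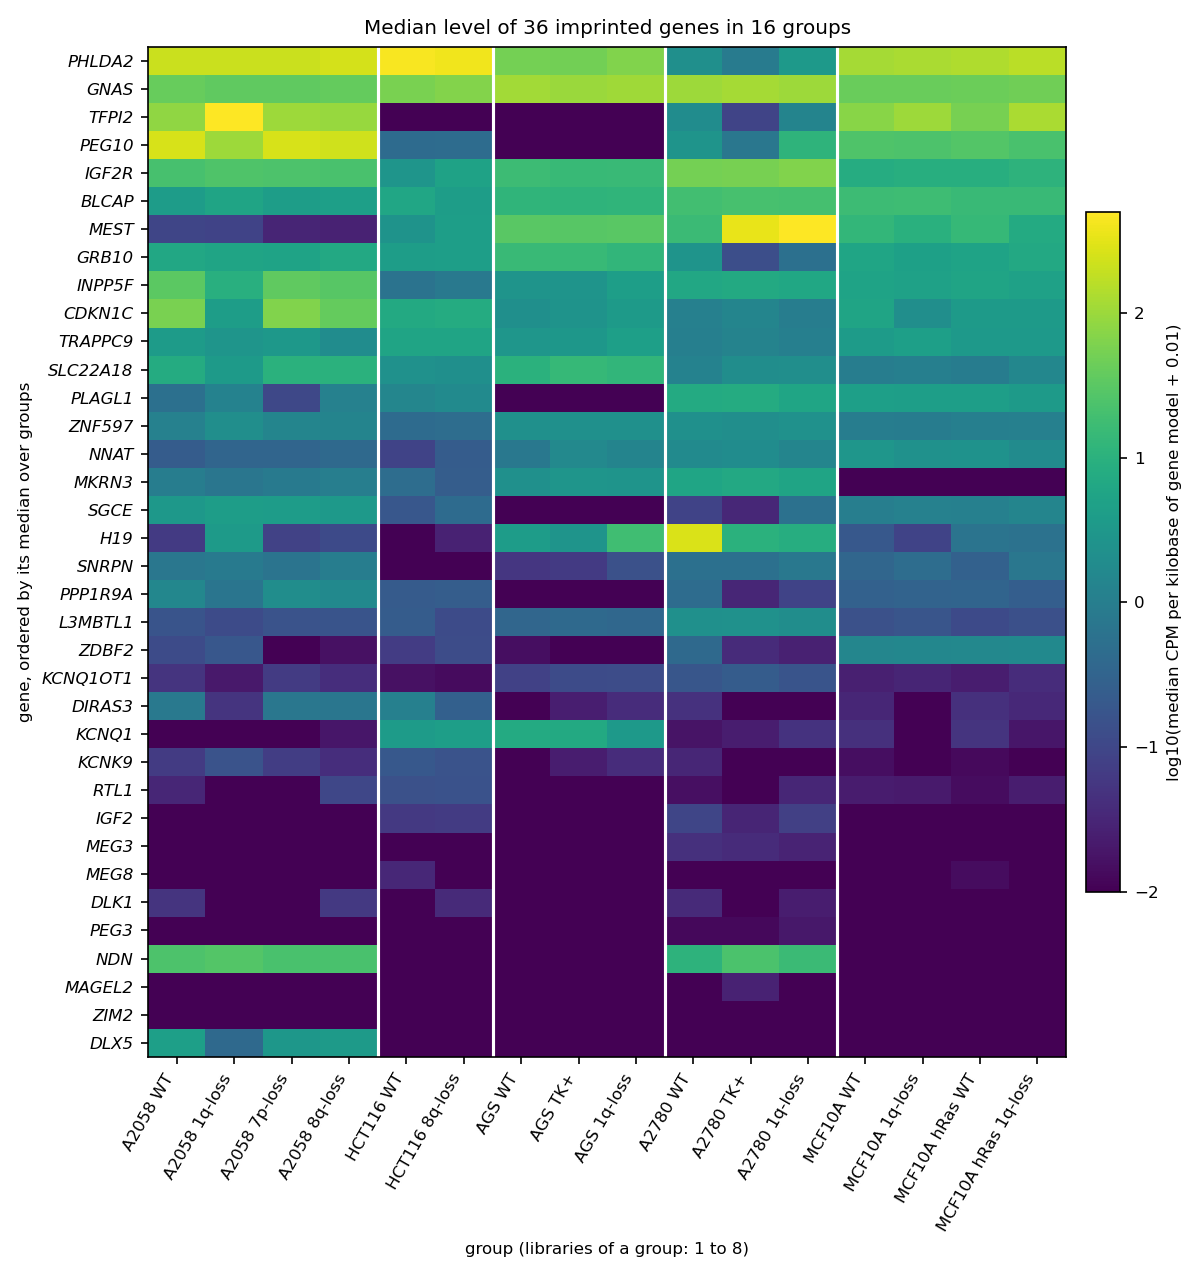
Median level of each of the 36 genes (rows) in each of the 16 groups (columns), as log10 of CPM per kilobase plus 0.01, with white lines between cell lines. PHLDA2 and GNAS are bright in most lines, while H19 is bright in A2780 WT and MEST in A2780 TK+ and 1q-loss.

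Per kilobase of gene model, the member with the highest median level was PEG10 in A2058 WT (264.5 CPM per kilobase) and PHLDA2 in HCT116 WT (449.7). It was GNAS in AGS WT (109.5), H19 in A2780 WT (274.7) and PHLDA2 in MCF10A WT (116.2). PEG10 encodes a retrotransposon-derived protein, PHLDA2 a placental growth restrainer, and GNAS the alpha subunit of the stimulatory G protein. The same gene could be near 0 elsewhere. PEG10 ranged from 1549 to 2340 CPM in the 4 A2058 WT libraries, was listed at 0 in AGS WT and was at 2.36 and 3.46 CPM in HCT116 WT. H19, a noncoding RNA (chr11:1995176-2001470 in GRCh38), was at 628.3 and 661.6 CPM in A2780 WT and at 11.3 CPM in AGS WT. It was under 1 CPM in the WT libraries of A2058, HCT116 and MCF10A without hRASV12.

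Some members were found in a few lines only. NDN, a growth suppressor of neurons encoded in the Prader-Willi region, was at 44.2 to 50.6 CPM in A2058 WT and 19.1 and 21.9 CPM in A2780 WT, and was at 0 in the WT libraries of the other 3 lines. DLX5, a homeobox transcription factor, was at 5.62 to 9.37 CPM in A2058 WT and at 0 in the WT libraries of the other lines. KCNQ1, a potassium channel, was at 33.4 CPM in AGS WT and at 12.6 and 21.2 CPM in HCT116 WT, and under 0.3 CPM in the other WT libraries, those with hRASV12 included. Its antisense partner KCNQ1OT1 lies inside it, and the sources used here do not state whether counting used the strand. Reads of overlapping pairs, among them KCNQ1 and KCNQ1OT1, MEST and COPG2, PEG10 and SGCE, and TRAPPC9 and PEG13, may therefore be shared. IGF2 stayed under 1 CPM in every WT library of the 5 lines.

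In A2780, cells with the TK+ integrant, which keep the 1q gain, differed from WT cells in 8 of 23 tested members, against 11.2% of all genes tested. The difference between these groups in H19 and MEST was in view when the genes were listed, so their values are a description and nothing is read from the count. H19 was at 628.3 and 661.6 CPM in the WT libraries and at 23.1 and 23.7 CPM in the TK+ libraries, a difference of -4.78 ± 0.10 on the log2 scale (SE, n = 2 and 2). MEST, a paternally expressed gene of the hydrolase family (chr7:130126046-130146133 in the GRCh37 coordinates of these tables), was at 40.0 and 38.5 CPM in WT. It was at 952.1 and 802.6 CPM in TK+ cells (log2 difference 4.49 ± 0.11). The groups were far apart in both genes, in opposite directions.

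**Figure D2:**
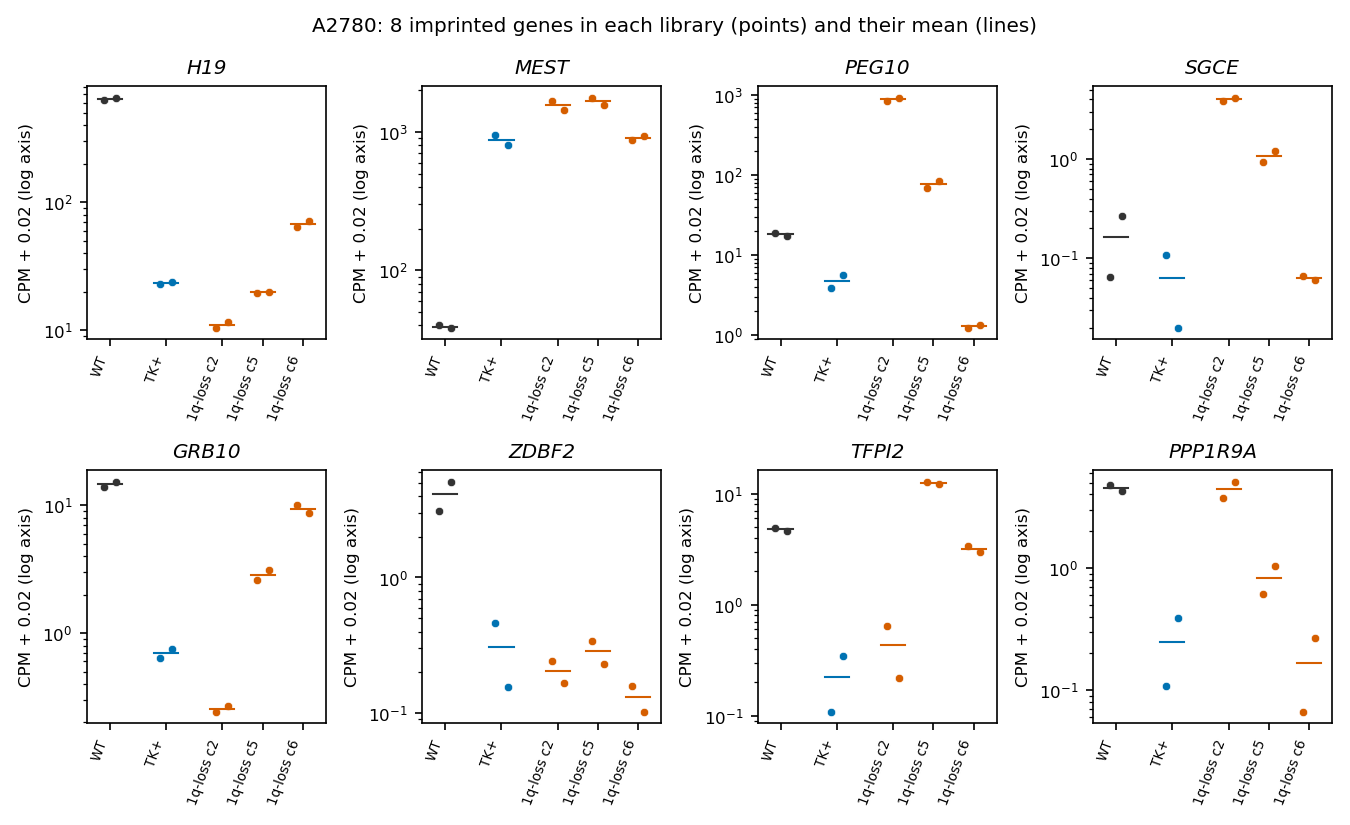
Level of 8 members in each A2780 library, as CPM plus 0.02 on log axes; points are libraries, lines are means of WT, TK+ or a 1q-loss clone. H19 and ZDBF2 are high in WT alone, MEST is low in WT alone, and PEG10 spans from 1.21 to 931 CPM over the 3 loss clones.

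Of the other genes, GRB10, an adaptor that restrains insulin receptor signalling, fell from 13.9 and 15.3 CPM in WT to 0.617 and 0.733 CPM in TK+ (-4.42 ± 0.22, adjusted p = 3.46e-08). PEG10 fell from 18.8 and 17.4 to 3.88 and 5.54 CPM (-1.94 ± 0.17, adjusted p = 8.14e-06). TFPI2, an inhibitor of serine proteases, fell from 4.88 and 4.63 to 0.0881 and 0.321 CPM (adjusted p = 1.2e-05). For each of these the WT and TK+ libraries did not overlap. PPP1R9A, an actin-binding protein, fell from 4.74 and 4.28 to 0.0881 and 0.366 CPM (adjusted p = 2.53e-05). ZDBF2, a zinc finger gene, fell from 3.07 and 5.07 to 0.44 and 0.137 CPM (adjusted p = 0.000142). The TK+ libraries hold 2 to 10 reads of the last 3 genes, so the size of those falls is poorly set. NDN rose, from 21.9 and 19.1 to 48.7 and 39.8 CPM (1.11 ± 0.12, adjusted p = 4.51e-05). Over the 23 tested members the median log2 change was 0.101, against 0.00493 over all genes. The sum of 4 simple epithelial markers was 171.0 and 180.1 CPM in WT and 5.59 and 8.38 CPM in TK+. That of 8 blood, endothelial and fibroblast markers was 781.4 and 793.0 CPM against 202.9 and 240.9 CPM. In WT, COL1A2 (372 to 376 CPM) and DCN (276 to 289 CPM) were the highest of the 8. PTPRC and CD3E, markers of blood cells, had at most 3 counts in both groups. The part of these differences in the result was not tested. Without TK+ replicate 1, 14 members were called, and the genes called in all were 3278 of 15539, against 1669 of 14888 with it. That fit has 1 TK+ library, whose spread is taken from the 2 WT libraries.

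Clones of A2780 that lost the 1q gain were set against WT and TK+ libraries together, and 1 of 23 tested members was called, against 11.8% of all genes. That gene was H19, at 10.4, 11.6, 19.6, 19.8, 64.2 and 71.8 CPM in the 6 libraries of clones 2, 5 and 6. The mean was 32.9 ± 27.6 (SD, n = 6) against 334.2 ± 359.1 in the 4 control libraries, and the log2 difference was -3.35 ± 0.96 (SE), with an adjusted p of 0.046. All 3 clones lay below the control mean but the groups overlapped, because the TK+ libraries were as low as the clones. With the TK+ libraries as the only controls, the H19 difference was 0.49 with an adjusted p of 0.794. The H19 call was also lost (adjusted p = 0.0544 to 0.133) without either WT library, any library of clones 2 and 5, clone 6 replicate 1, or all of clone 2 or of clone 5, and with the libraries of each clone summed (0.209). MEST was at 877.8 to 1768 CPM in the 6 loss libraries. Clones 2 and 5 lay above all 4 controls and clone 6 between the TK+ libraries, and the log2 difference of 1.59 ± 0.82 was not called (adjusted p = 0.241). The H19 and MEST levels of the WT libraries were in view when the genes were listed, so the H19 call, and any call of MEST against WT alone, supports nothing. PEG10, SGCE, PHLDA2 and IGF2R had an unadjusted p under 0.05 and were not called. ZDBF2 was at 0.0825 to 0.32 CPM in the loss libraries, near the TK+ libraries. High MEST and low H19 and ZDBF2, relative to WT, were seen in TK+ and 1q-loss libraries alike.

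The 3 A2780 clones also differed from each other. A test among the 3 clones, added after the values of the libraries had been seen, called 13 of 24 tested members, against 20.6% of all genes. PEG10 (chr7:94285637-94299007 in GRCh37) was at 837 and 931 CPM in clone 2, at 67.9 and 84.9 CPM in clone 5 and at 1.21 and 1.32 CPM in clone 6. The clone means spanned 698-fold (adjusted p = 3.63e-10). SGCE, which encodes epsilon-sarcoglycan and shares a promoter region with PEG10 on the opposite strand, kept this order at far lower levels. It was at 3.78 and 4.15 CPM in clone 2, 0.913 and 1.18 CPM in clone 5 and under 0.05 CPM in clone 6 (adjusted p = 1.32e-05). PPP1R9A, in the same cluster of the long arm of chromosome 7, had the same order, from 4.41 CPM in clone 2 to 0.147 CPM in clone 6 (adjusted p = 0.000108). TFPI2, a further gene of that cluster, did not: it was highest in clone 5, at 12.5 CPM, and lowest in clone 2, at 0.41 CPM (30.5-fold, adjusted p = 2.46e-06). The shift of the whole arm 7q was between -0.008 and 0.021 (log2) in the 3 clones.
GRB10 had the reverse order of PEG10. It was at 0.223 and 0.247 CPM in clone 2, 2.6 and 3.08 CPM in clone 5 and 10.02 and 8.66 CPM in clone 6, a span of 39.8-fold (adjusted p = 1.02e-06). H19 also rose in that order of clones, from a mean of 10.98 CPM in clone 2 to 68.0 CPM in clone 6 (6.19-fold, adjusted p = 9.99e-08), and so did PLAGL1, from 15.7 to 44.8 CPM (2.85-fold, adjusted p = 8.06e-06). PLAGL1 encodes a zinc finger protein that stops cell growth. It lies on 6q, whose genes as a whole were shifted by 0.334 (log2) in clone 6, against -0.065 to 0.031 in the control libraries; the part of that shift was not tested. The other called genes were MEST (1.84-fold), NDN (2.28-fold), PHLDA2 (3.57-fold), SLC22A18 (2.14-fold), BLCAP (1.38-fold) and RTL1, whose highest clone was at 0.571 CPM. The RTL1 call was lost without clone 2 replicate 2, either clone 5 library or clone 6 replicate 2 (adjusted p 0.0674 to 0.0861). That of SLC22A18 was lost without clone 2 replicate 1 (0.0946), and that of BLCAP without either clone 6 library (0.0922 and 0.114). The sum of 8 blood, endothelial and fibroblast markers also differed between the clones, at 2874 and 2852 CPM in clone 2, 1754 and 1694 CPM in clone 5 and 369.3 and 357.8 CPM in clone 6, while PTPRC, CD3E and CD14 had at most 3 counts. That of 4 simple epithelial markers was 84.09 and 84.65 CPM in clone 2 and 7.227 to 14.89 CPM in clones 5 and 6. The part of these differences in the clone and 1q-loss results was not tested.

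The 3 A2058 comparisons share their 4 WT libraries, so they are not independent of each other, and the same holds for both A2780 comparisons. In A2058, 19 of 25 tested members were called in the 1q-loss clones, 8 higher and 11 lower, where 49.6% of all genes were called. CDKN1C, an inhibitor of cyclin-dependent kinases on the short arm of chromosome 11 (chr11:2883213-2885773 in GRCh38), was at 101.8 to 145.5 CPM in the 4 WT libraries. It was at 16.5 and 14.2 CPM in clone 1 and 6.61 and 6.34 CPM in clone 2, and fell by 3.62 ± 0.30 on the log2 scale (SE, adjusted p = 4.48e-06). In the same cluster, KCNQ1OT1 fell by 1.86 ± 0.21 (adjusted p = 4.06e-05), from a mean of 3.63 to 0.996 CPM. SLC22A18, a transporter, fell from a mean of 41.5 to 19.2 CPM (adjusted p = 0.000218). PHLDA2, also in that cluster, was at 175 to 211 CPM in the loss libraries and 167 to 247 CPM in WT. INPP5F, a phosphoinositide phosphatase, was at 207 to 276 CPM in WT and at 82.0, 80.2, 60.8 and 53.3 CPM in the loss libraries (-1.82 ± 0.15, adjusted p = 4.35e-06). WT and loss libraries did not overlap in these 4 called genes.

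**Figure D3:**
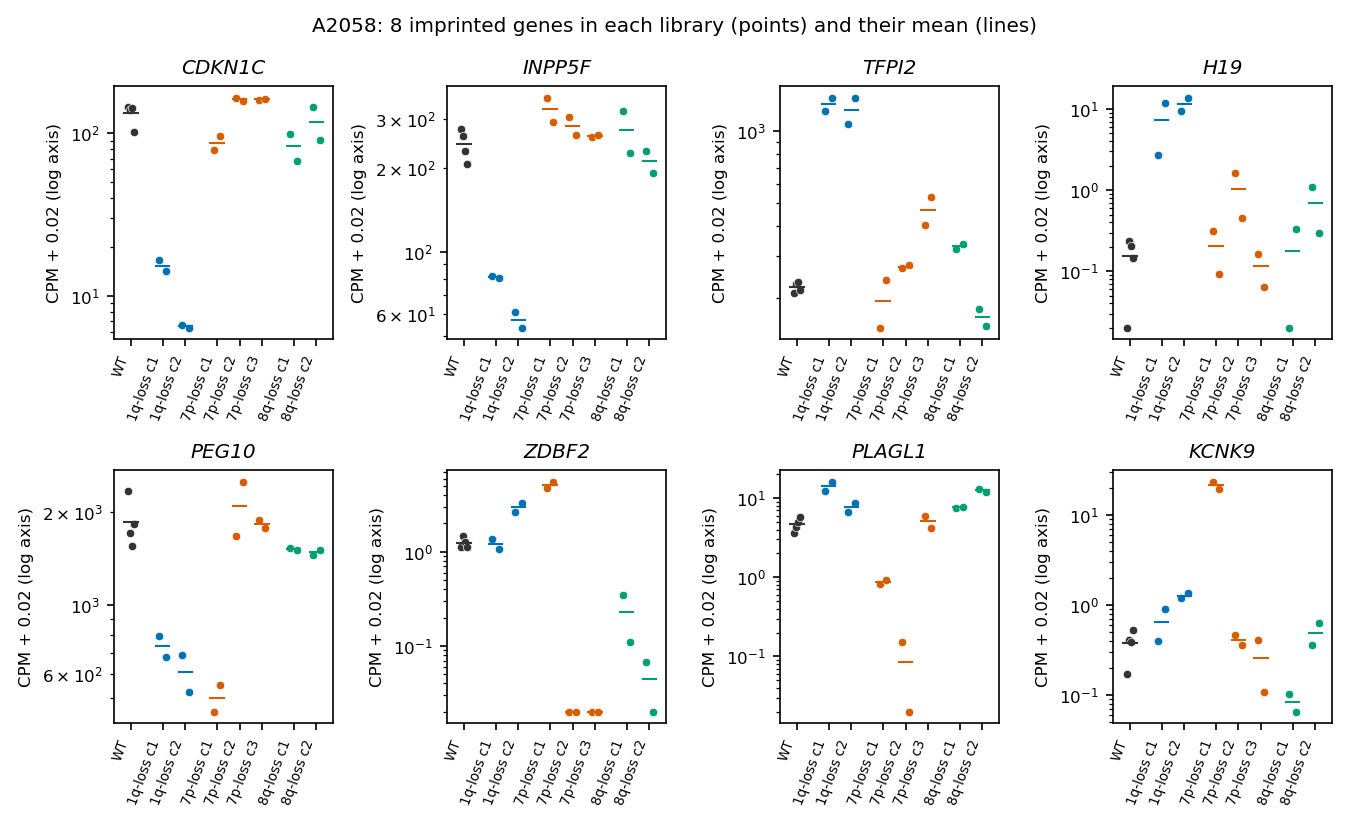
Level of 8 members in each A2058 library, as CPM plus 0.02 on log axes; points are libraries, lines are means of WT or of a clone. CDKN1C and INPP5F are low in both 1q-loss clones, ZDBF2 is near 0 in 7p-loss clones 2 and 3 and both 8q-loss clones, and KCNK9 is high in 7p-loss clone 1 alone.

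Genes of the PEG10 cluster moved in different directions in these cells. TFPI2 rose from 209 to 232 CPM in WT to 1068 to 1382 CPM (2.51 ± 0.09, adjusted p = 3.64e-08), and SGCE rose from 65.9 to 87.2 CPM (adjusted p = 0.00078). PEG10 fell from 1857 ± 342 (SD, n = 4) to 671 ± 112 CPM (-1.47 ± 0.15, adjusted p = 1.84e-05). PPP1R9A fell from 16.5 to 7.09 CPM (-1.22 ± 0.14, adjusted p = 4.63e-05), and DLX5 from 7.66 to 0.808 CPM (adjusted p = 0.000504). The whole arm 7q was shifted by 0.074 and 0.105 (log2) in the 2 clones. H19 was at 0 to 0.216 CPM in WT and at 2.72, 11.98, 9.49 and 13.9 CPM in the loss libraries (6.08 ± 0.65, adjusted p = 2.71e-05), with 0 to 5 reads per WT library. DIRAS3, a Ras-related growth suppressor, had 22 to 47 reads per WT library and 1 to 4 per loss library (adjusted p = 3.67e-05).
PLAGL1 rose from a mean of 4.64 to 10.9 CPM, ZNF597 from 6.40 to 11.2 CPM and BLCAP from 32.6 to 44.95 CPM, while GNAS fell from 548 to 472.5 CPM (adjusted p of these 4 between 0.000694 and 0.00587). With WT replicates 3 and 4 only, PLAGL1 had an adjusted p of 0.0521. MKRN3 and TRAPPC9 were called lower, and IGF2R and KCNK9 higher, with adjusted p between 0.0233 and 0.0342. These 4 calls were each lost in alternatives that used WT replicates 3 and 4 only (adjusted p 0.156 to 0.237), and without single libraries or a clone. With WT replicates 1 and 2 only, IGF2R (0.103) and KCNK9 (0.0633) lost it, and with the libraries of each clone summed MKRN3 (0.0592) and TRAPPC9 (0.0849). MKRN3 lost it without WT replicate 1 or 2 or clone 2 replicate 1 (0.056 to 0.067) and without clone 2 (0.0968). IGF2R (0.0517 to 0.0965) lost it without WT replicate 1, 2 or 4 or replicate 1 of either clone. KCNK9 lost it without WT replicate 1, 2 or 3 or either clone 2 library (0.0527 to 0.0739) and without clone 2, where the difference was 0.78 (0.271). TRAPPC9 lost it without WT replicate 1, 2 or 4 or either clone 1 library (0.0629 to 0.079) and without clone 1 (0.201). The count of members called stayed between 14 and 21 over all alternatives. The 1q-loss cells also differed from WT in cell type markers. The sum of 6 melanocyte markers was 49.4 to 254.5 CPM (5 of 6 at a mean of at least 1 CPM) against 2483 to 4396 CPM in WT (6 of 6), with SOX10 at 24.8 to 82.0 CPM against 469 to 651 CPM. That of 5 basal epithelial markers, mostly KRT17, was 51.1 to 265.5 CPM against 0.8215 to 2.747 CPM, while KRT14 had at most 3 counts. That of 9 blood, endothelial and fibroblast markers was 127.8 to 262.9 CPM against 18.6 to 26.2 CPM, while PTPRC and CD3E had at most 3 counts. The simple epithelial sum was 166.4 to 211.7 CPM against 80.25 to 106.4 CPM, while EPCAM had at most 3 counts in the loss libraries. The ovarian sum was 15.95 to 19.73 CPM against 7.104 to 8.819 CPM, while MUC16 and EMX2 had at most 3 counts. The part of these differences in the result was not tested.

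No member was called in the A2058 7p-loss clones (0 of 24 tested), where 0.908% of all genes were called by edgeR. At an unadjusted p under 0.05 there were 4 members, and DESeq2 called 0. GRB10, the member on 7p (chr7:50590063-50793462), was at 51.8 to 75.1 CPM in WT and 63.8, 61.4, 48.3, 35.9, 56.5 and 32.8 CPM in clones 1 to 3. The clone means all lay below the WT mean, but the groups overlapped and the change of -0.37 ± 0.19 was not called (adjusted p = 0.452). The 7p arm as a whole was shifted by -0.446 to -0.525 (log2) in the 3 clones. Without clone 1, 3 members were called: ZDBF2 and GNAS lower and PPP1R9A higher. The genes called in all were then 898, against 139 with all libraries and 71 without WT replicate 3. With no member called, they were 525 with DESeq2, 55 with the libraries of each clone summed, 16 with WT replicates 1 and 2 only and 47 with WT replicates 3 and 4 only. The sum of 9 blood, endothelial and fibroblast markers was 1.833 to 11.56 CPM in the 7p-loss libraries and 18.55 to 26.16 CPM in WT, and its part in the result was not tested.
The 3 clones of the 7p-loss group differed among themselves in 11 of 25 tested members, against 29.4% of all genes. Clone 1 stood apart in most of them. KCNK9, a potassium channel, was at 23.5 and 19.4 CPM in clone 1 and at 0.0886 to 0.441 CPM in clones 2 and 3 (90.3-fold between the highest and lowest clone mean, adjusted p = 0.000215). ZDBF2 was at 4.74 and 5.56 CPM in clone 1 and at 0 in the 4 libraries of clones 2 and 3 (adjusted p = 0.00131). WT libraries held ZDBF2 at 1.1 to 1.47 CPM, so clone 1 lay above and the other 2 below WT. PHLDA2 was at 353 and 380 CPM in clone 1 and 180 to 214 CPM in the others (adjusted p = 0.00166), and GNAS at 771 and 774 CPM against 420 to 499 CPM (adjusted p = 0.00166). PEG10 was lower in clone 1, at 451.6 and 549.8 CPM against 1672 to 2514 CPM (adjusted p = 0.00164), and so were CDKN1C, at 78.5 and 96.5 CPM against 158 to 166 CPM, and PPP1R9A, at 9.98 and 9.27 CPM against 22.1 to 24.25 CPM. PLAGL1 followed another pattern, with 0.132 and 0 CPM in clone 2, 0.79 and 0.891 CPM in clone 1 and 5.98 and 4.12 CPM in clone 3 (adjusted p = 0.00201). NDN, DLX5 and TFPI2 were also called, with 1.36-, 2.1- and 2.41-fold between the highest and lowest clone mean. The NDN call was lost without any 1 library but clone 3 replicate 2 (adjusted p 0.0524 to 0.116), that of DLX5 without either clone 1 library (0.0673 and 0.0813), and that of TFPI2 without clone 3 replicate 2 (0.059). The arms 2q, 6q, 7q and 8q, which carry ZDBF2, PLAGL1, PEG10 and KCNK9, were shifted by -0.063 to 0.114 (log2) in these clones. The sum of 4 simple epithelial markers was 42.04 and 42.36 CPM in clone 1 and 70.35 to 124.2 CPM in clones 2 and 3, against 80.25 to 106.4 CPM in WT, while EPCAM had at most 3 counts in the clones. The melanocyte sum differed between the libraries of each clone, at 1195 to 1879 CPM in replicate 1 and 2466 to 4644 CPM in replicate 2. The part of these sums in the clone differences was not tested.

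The A2058 8q-loss clones had 3 of 23 tested members called, against 2.03% of all genes. TRAPPC9, a subunit of a vesicle-tethering complex encoded on 8q, was at 41.6, 37.2, 28.4 and 37.2 CPM in WT. It was at 14.03, 15.1, 22.6 and 23.4 CPM in clones 1 and 2, without overlap, and fell by 0.95 ± 0.19 on the log2 scale (adjusted p = 0.0322). The whole arm was shifted by -0.491 and -0.557 in the 2 clones. ZDBF2 fell from 22 to 34 reads per WT library to 0 to 8 reads (adjusted p = 0.0221). PLAGL1 rose from 3.55 to 5.71 CPM in WT to 7.55, 7.72, 13.1 and 12.03 CPM (1.12 ± 0.23, adjusted p = 0.0393). KCNK9, the other member on 8q, had 3 to 12 reads per WT library and 1 to 13 per loss library and did not pass the filter on low counts. The 3 calls were not stable to the choice of libraries. With WT replicates 3 and 4 only, the adjusted p was 0.514 for TRAPPC9, 0.347 for ZDBF2 and 0.57 for PLAGL1, and with WT replicates 1 and 2 only 0.0919, 0.141 and 0.115. With the libraries of each clone summed, TRAPPC9 (0.0718) and PLAGL1 (0.0782) lost the call. The TRAPPC9 call was lost (0.052 to 0.12) without WT replicate 1, 2 or 4 or either clone 1 library, that of ZDBF2 (0.055 to 0.094) without WT replicate 1, 2 or 3, clone 1 replicate 2 or clone 2 replicate 1, and that of PLAGL1 (0.0543 to 0.157) without any 1 WT library, either clone 2 library or all of clone 2. Among the 2 clones, 0 of 24 members were called by edgeR (6 at an unadjusted p under 0.05, and 1 by DESeq2), against 0.592% of all genes. Among the 2 A2058 1q-loss clones, 3 of 25 were called, against 6.13% of all genes: CDKN1C (2.37-fold), PLAGL1 (1.86-fold) and INPP5F (1.42-fold), each higher in clone 1. The INPP5F call was lost without either clone 1 library or clone 2 replicate 2 (adjusted p 0.0698 to 0.101), and that of PLAGL1 without either clone 1 library or clone 2 replicate 1 (0.0529 to 0.198) and with a mean CPM of at least 1 as the filter (0.0521). Marker sums also differed between these 2 clones. The melanocyte sum was 198.9 and 254.5 CPM in clone 1 and 62.1 and 49.4 CPM in clone 2, the basal epithelial sum 51.1 and 99.98 CPM against 232.5 and 265.5 CPM, and the blood, endothelial and fibroblast sum 127.8 and 135.6 CPM against 262.9 and 233.2 CPM. Their part in the clone differences was not tested.

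In HCT116, no member of 24 tested was called in the 8q-loss clones, against 0.14% of all genes; 2 members had an unadjusted p under 0.05 and DESeq2 called 0. TRAPPC9 was at 63.8 and 42.9 CPM in WT and at 63.1, 45.1, 49.6 and 59.0 CPM in the loss libraries (0.02 ± 0.28, adjusted p = 1.0), although the 8q arm was shifted by -0.552 and -0.661. KCNK9 was at 1.86 and 0.718 CPM in WT, 1.62 and 1.97 CPM in clone 1 and 0.362 and 0.14 CPM in clone 2 (-0.34 ± 1.01, adjusted p = 1.0). Without WT replicate 2 the TRAPPC9 difference was -0.23, and without WT replicate 1 it was 0.35. The KCNK9 difference was 0.51 without WT replicate 1. Between the 2 clones, 4 of 23 tested members were called, against 18.5% of all genes. RTL1, a retrotransposon-derived placental gene, was at 1.55 and 1.54 CPM in clone 1 and at 0 in both clone 2 libraries (adjusted p = 0.0115). PHLDA2 was higher in clone 1 (1.61-fold), and PPP1R9A (2.97-fold) and INPP5F (2.23-fold) were higher in clone 2. Each of the 4 was lost without either clone 2 library (adjusted p 0.0531 to 0.472), and PPP1R9A also with the size factors of DESeq2 (0.0535) and with DESeq2 itself (0.0516). The sum of 4 simple epithelial markers was 5831 and 5759 CPM in clone 1 and 2017 and 2087 CPM in clone 2. In the same order, the intestinal sum was 131.6 and 183.1 CPM against 90.82 and 91.01 CPM. The basal epithelial sum was 20.77 and 13.08 CPM against 0.9861 and 1.606 CPM, and the melanocyte sum 13.61 and 13.9 CPM against 7.658 and 7.229 CPM. The part of these sums in the clone differences was not tested.

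In AGS, 2 of 17 tested members were called in the 1q-loss clones, against 7.55% of all genes. H19 was at 2.51 and 13.3 CPM in the TK+ clones and 11.3 CPM in WT. It was at 19.9, 51.8, 171, 134.5 and 46.0 CPM in 1q-loss clones 1, 4, 6, 7 and 11, higher in all 5, by 3.23 ± 0.80 on the log2 scale (adjusted p = 0.0412). KCNQ1 was at 27.5, 36.3 and 33.4 CPM in the 3 controls and at 9.72, 12.02, 16.01, 14.8 and 23.4 CPM in the clones, lower in all 5 (-1.09 ± 0.25, adjusted p = 0.0337). Neither gene overlapped between the groups. The 5 clones were not equally unlike, by a chi-square between the counts of 2 libraries per degree of freedom. It was 7.06 for clones 6 and 7, 19.4 for clones 1 and 4, and 37.6 to 86.0 for the other pairs. Whether clones 6 and 7 arose independently was not tested. Both lie on 11p, which was shifted by 0.39 and 0.461 (log2) in clones 1 and 4 and by 0.01 to 0.034 in clones 6, 7 and 11. The part of that shift in the result was not tested. KCNQ1OT1, which overlaps KCNQ1 on the other strand, was at 6.51 to 11.9 CPM in the controls and 6.18 to 13.7 CPM in the clones (adjusted p = 0.585).
INPP5F was at 18.3 to 22.1 CPM in the controls and 23.5 to 34.4 CPM in the clones and just missed the threshold (0.56 ± 0.15, adjusted p = 0.0562). SNRPN, a splicing gene of the Prader-Willi region, did not pass the filter on low counts, with 2 to 4 reads per control and 6 to 55 reads per clone. MEST was at 142 to 152 CPM in the controls and 151 to 159 CPM in the clones, while the same gene ranged from 38.5 to 1768 CPM over the A2780 libraries. The calls were lost with the TK+ libraries as the only controls (adjusted p 0.132 for H19, 0.123 for KCNQ1). H19 also lost it without clone 6 or 7 or any 1 control library (0.0635 to 0.132), and KCNQ1 without clone 4, 6 or 7 or any 1 control library (0.0566 to 0.14). The sum of 4 simple epithelial markers was 5868 to 7867 CPM in the 5 clones and 3784 to 5193 CPM in the controls, and that of 5 basal epithelial markers 290.7 to 660.6 CPM against 95.41 to 285.9 CPM, while TP63 had at most 3 counts. The ovarian sum was low, at 0.5981 to 5.141 CPM in the clones against 0.1774 to 0.4512 CPM in the controls. None of these sums overlapped between the groups, and their part in the result was not tested.

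In MCF10A, 1q loss changed no member beyond the test in either setting. Without hRASV12, 0 of 22 tested members were called by edgeR (2 at an unadjusted p under 0.05, 0 by DESeq2), against 2.04% of all genes. With hRASV12, it was 0 of 22 (3 at an unadjusted p under 0.05, 2 by DESeq2), against 0.214% of all genes by edgeR, which called 34 genes where DESeq2 called 496. The 2 genes without hRASV12 were GRB10, at 52.5 and 59.2 CPM in WT and 41.2 to 53.3 CPM in the clones (-0.28 ± 0.10, adjusted p = 0.261), and CDKN1C, at 16.9 and 10.9 CPM in WT and 1.28 to 14.1 CPM in the clones (-1.23 ± 0.49, adjusted p = 0.328). The 3 with hRASV12 were SNRPN (1.32 ± 0.34, adjusted p = 0.167), PEG10 (-0.31 ± 0.08, adjusted p = 0.192) and PLAGL1 (-0.28 ± 0.10, adjusted p = 0.288), and DESeq2 called SNRPN and PEG10. hRASV12 in WT cells changed 0 of 22 members (6 at an unadjusted p under 0.05, 0 by DESeq2), against 1.62% of all genes. In the 1q-loss clones it changed 2 of 22, against 1.2% of all genes. GRB10 was at 41.2 to 53.3 CPM without and 48.5 to 88.1 CPM with hRASV12, higher in all 4 clones (0.56 ± 0.13, adjusted p = 0.0442). TRAPPC9 was at 34.0 to 46.9 CPM without and 31.04 to 35.5 CPM with hRASV12, lower in all 4 clones (-0.34 ± 0.07, adjusted p = 0.0387). The groups overlapped in both genes, and with the libraries of each clone summed both had an adjusted p of 0.743. With no filter on low counts it was 0.0534 for GRB10 and 0.0507 for TRAPPC9. The GRB10 call was lost (0.0522 to 0.097) without any 1 library of the clones that lack hRASV12 or of hRASV12 clones 2 and 4. Without the clones numbered 2, 3 or 4 in both settings it was 0.366, 0.0912 and 0.135. The TRAPPC9 call was lost (0.0535 to 0.0878) without the first library of any of the 4 clones that lack hRASV12, the second library of clone 3, or any library of hRASV12 clones 2 and 4. Without the clones numbered 2, 3 or 4 it was 0.287, 0.14 and 0.0553. The interaction of 1q loss with hRASV12 was called for 0 of 22 members by edgeR and DESeq2 (1 at an unadjusted p under 0.05), against 0% of all genes.

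The 4 hRASV12 clones differed from each other in 16 of 22 tested members, against 65.3% of all genes.

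**Figure D4:**
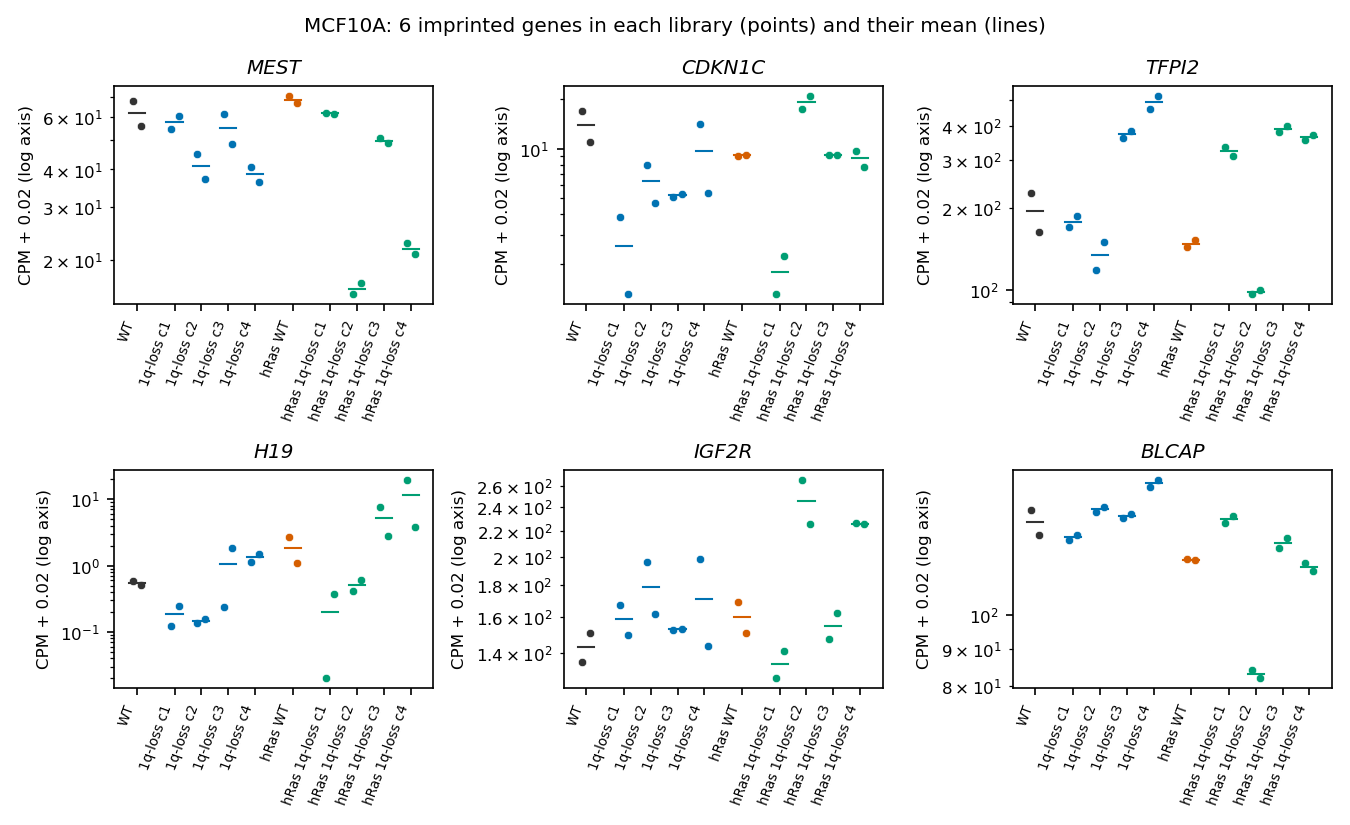
Level of 6 members in each MCF10A library, as CPM plus 0.02 on log axes; points are libraries, lines are means of WT or of a clone. With hRASV12, MEST is low in clones 2 and 4, TFPI2 low in clone 2 and CDKN1C low in clone 1, and both libraries of a clone lie close together in these genes.

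MEST was at 61.9 and 61.3 CPM in clone 1, 15.3 and 16.7 CPM in clone 2, 50.8 and 49.1 CPM in clone 3 and 22.6 and 20.9 CPM in clone 4 (3.85-fold, adjusted p = 3.13e-16). WT cells with hRASV12 held 70.3 and 66.5 CPM. TFPI2 was at 96.0 and 99.5 CPM in clone 2 and at 311 to 401 CPM in the other 3 clones (3.99-fold, adjusted p = 1.31e-19). CDKN1C was lowest in clone 1, at 1.3 and 2.21 CPM, and highest in clone 2, at 17.5 and 20.9 CPM (10.9-fold, adjusted p = 1.14e-12). IGF2R, the receptor that removes IGF2 from the cell surface, was at 226 to 266 CPM in clones 2 and 4 and at 127 to 162 CPM in clones 1 and 3 (adjusted p = 1.8e-11). BLCAP, a small membrane protein, was at 84.2 and 82.0 CPM in clone 2 and 115 to 136 CPM in the others (adjusted p = 3.18e-09). H19 was at 0 and 0.358 CPM in clone 1, 0.394 and 0.594 CPM in clone 2, 7.67 and 2.81 CPM in clone 3 and 19.4 and 3.72 CPM in clone 4 (adjusted p = 3.63e-08), so the libraries of clone 4 differed more from each other than those of clones 1 and 2 did. GRB10, PHLDA2, SLC22A18, KCNQ1OT1, PPP1R9A, SGCE, ZDBF2, GNAS, NNAT and INPP5F were also called, at 1.27- to 6.69-fold. The NNAT call was lost with DESeq2 (adjusted p = 0.0659) and without clone 1 replicate 2, either clone 2 library or clone 4 replicate 2 (0.0518 to 0.129). That of INPP5F was lost without either clone 1 library (0.0571 and 0.0753). Clone 2 stood apart in cell type markers. The sum of 5 basal epithelial markers was 1499 and 1425 CPM in clone 2, 7173 to 10910 CPM in the other clones and 7202 and 7679 CPM in the WT libraries with hRASV12. That of 4 simple epithelial markers was 426.4 and 416.7 CPM in clone 2 against 655.5 to 1509 CPM in the other clones, and that of 5 intestinal markers 3.706 and 5.071 CPM against 31.86 to 145.5 CPM. The blood, endothelial and fibroblast sum was higher there, at 273.2 and 291.0 CPM against 22.21 to 106.1 CPM. The part of these sums in the clone differences was not tested.
Without hRASV12, the 4 clones differed in 3 of 22 members, against 8.51% of all genes. TFPI2 was at 170 and 186 CPM in clone 1, 118 and 150 CPM in clone 2, 363 and 384 CPM in clone 3 and 462 and 516 CPM in clone 4 (3.66-fold, adjusted p = 3.74e-06). SLC22A18 spanned 2.43-fold (adjusted p = 0.0105), lost without clone 1 replicate 2 (0.0622). MEST spanned 1.49-fold (adjusted p = 0.0431), lost without clone 1 replicate 1 or 2, clone 2 replicate 2, clone 3 replicate 1 or clone 4 replicate 2 (0.0535 to 0.144). The basal epithelial sum was 14960 and 12030 CPM in clone 4 and 6717 to 10700 CPM in the other clones, and the intestinal sum 73.91 and 59.84 CPM against 101.0 to 166.0 CPM. The sum of the ovarian markers was 1.091 and 0.9969 CPM in clone 3 and 8.57 to 12.71 CPM in the others. With hRASV12 it was 0.9322 and 1.724 CPM in clone 3 and 7.097 to 15.84 CPM in the others. The part of these sums in the clone differences was not tested. Whether clones with the same number in both settings come from the same cells is not given in the sources used here.

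**Figure D5:**
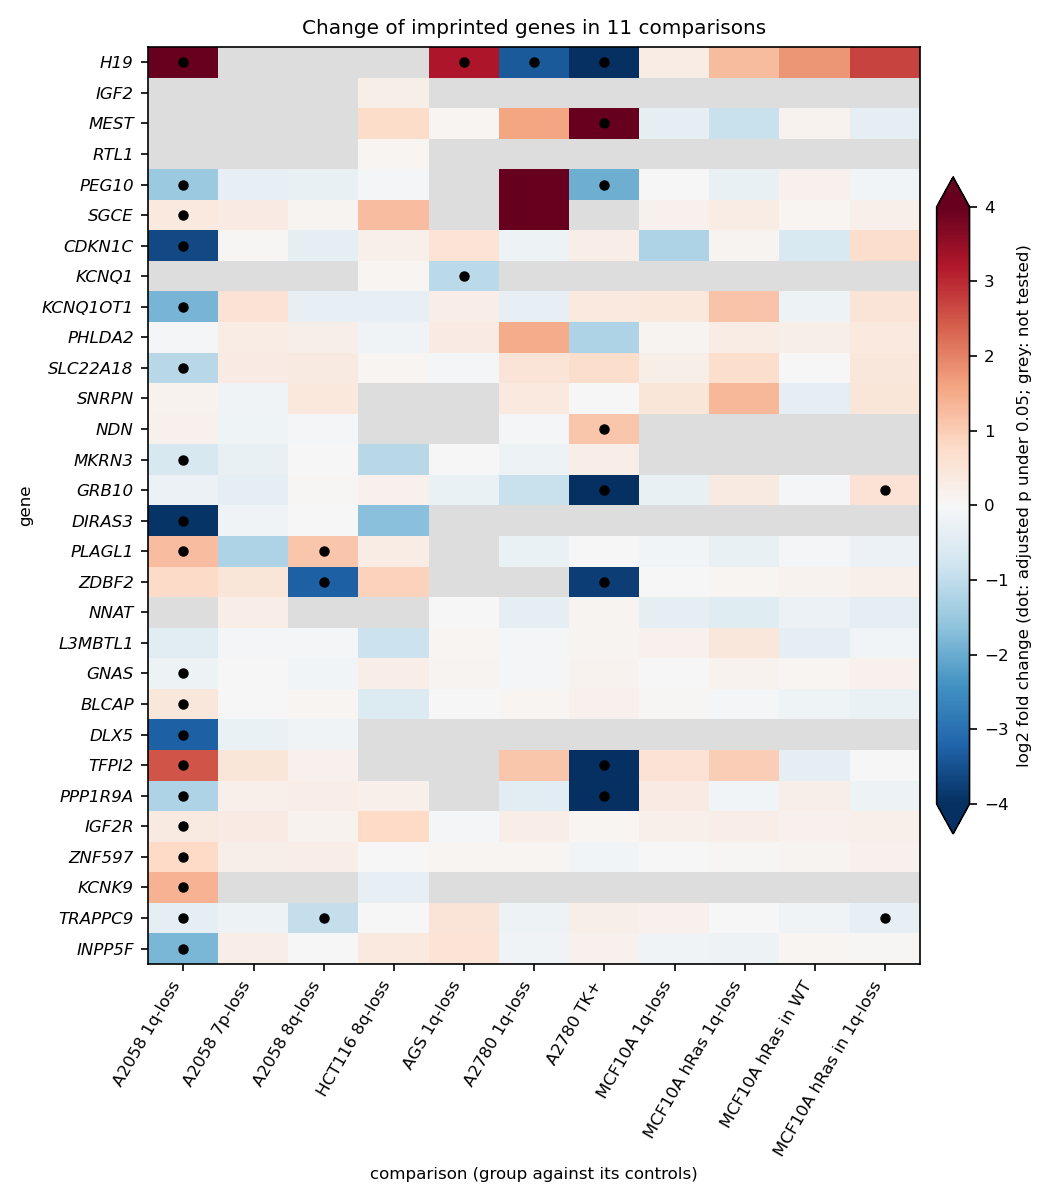
Log2 fold change of each tested member (rows) in 11 comparisons (columns) with the colour scale ending at -4 and 4; black dots mark adjusted p under 0.05 and grey means not tested. There are 19 dots in the column A2058 1q-loss, where 49.6% of all genes were called, and none in A2058 7p-loss, HCT116 8q-loss and both MCF10A 1q-loss columns.

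The median log2 change over the tested members was -0.217 in A2058 1q-loss, against -0.00057 over all genes. In the other comparisons on this map it lay between -0.0664 (A2780 1q-loss) and 0.171 (hRASV12 in 1q-loss clones), against -0.00689 to 0.0328 over all genes.

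A pair of further lists was read in the same fits, with 54 other genes reported as imprinted and 28 genes that set or keep imprints. Of the other imprinted genes, 10 rose and 7 fell of 24 tested in A2058 1q-loss, where 49.6% of all genes were called, with a median log2 change of 0.143 against -0.00057 over all genes. Among them CPA4, a carboxypeptidase, rose from 7.13 ± 2.04 to 131.9 ± 35.0 CPM (SD, n = 4 and 4, adjusted p = 3.8e-07). ERAP2, an aminopeptidase, rose from 82.2 to 185 CPM (adjusted p = 1.3e-06). ATP10A, a lipid-transporting ATPase, was the only one of the list lower in all 3 A2058 comparisons, which share their WT libraries. It had 32 to 59 reads in each WT library, 0 in every 1q-loss and 7p-loss library and 0 or 1 in the 8q-loss libraries (adjusted p = 1.74e-05, 0.00169 and 0.00042). In A2780, 3 of 20 tested genes of the list were called in 1q-loss (11.8% of all genes) and 4 of 19 in TK+ (11.2%). In A2058 it was 1 of 24 in 7p-loss (0.908%) and 2 of 23 in 8q-loss (2.03%), and in AGS 1 of 26 (7.55%).
Of the genes that set or keep imprints, 10 fell and 0 rose of 21 tested in A2780 1q-loss, where 11.8% of all genes were called, with a median of -0.241 against 0.0115. In A2058 1q-loss 5 fell and UHRF1 rose of 21 (49.6% of all genes called). In AGS 3 fell of 21 (7.55%), and in MCF10A without hRASV12 2 fell of 22 (2.04%). In the other 7 comparisons edgeR called none of 21 to 23, with medians from -0.268 (MCF10A hRASV12 1q-loss) to 0.346 (HCT116 8q-loss). In A2780 1q-loss the smallest adjusted p values of the list were those of ARID4B (80.4 to 55.2 CPM, adjusted p = 0.000982), SETDB1 (51.1 to 36.2 CPM, adjusted p = 0.00111) and EHMT2 (191 to 142 CPM, adjusted p = 0.00571). ARID4B and SETDB1, a histone methyltransferase, lie on 1q, the arm that was removed. SETDB1 fell in all 4 comparisons of 1q loss without hRASV12, to 24.5 CPM from 36.2 in A2058, 31.8 from 53.1 in AGS and 23.8 from 37.7 in MCF10A (adjusted p = 7.27e-05, 0.013 and 0.00359).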

How the data were processed

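RNA was extracted with a Qiagen kit from cells plated for 24 hours, and messenger RNA was captured on poly-T beads, per the labels' protocols. The deposited values are raw read counts per gene, 1 column per library. HISAT2 2.0.5, featureCounts 1.5.0-p3 and hg38 are named in the submitters' processing notes. The A2780 tables carry GRCh37 coordinates, while those of the other lines carry GRCh38 coordinates, so A2780 was fitted alone. Whether counting used the strand is not given in the sources used here. All columns of per-sample values were used.

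From these counts, each comparison was fitted over all genes with edgeR 4.0.16 in R 4.3.3. Genes were kept with filterByExpr (minimum count 10, minimum total 15), scaled with TMM, and tested with the two-sided quasi-likelihood F-test with Benjamini-Hochberg adjustment. A gene is called at an adjusted p under 0.05. Fold changes are log2 with edgeR's prior count. The standard errors beside them are approximate, derived as the size of the fold change over the square root of the F statistic. Levels are CPM. Clones of a loss group were compared by the same test over their libraries, a question added after values per library were seen. The shift of a chromosome arm is the median log2 difference of its other genes from the controls, relative to the other arms. The fits were tested on simulated data.

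The members, the 2 further lists and the comparisons were chosen with earlier results of these data known. Every called member is named, with full statistics for up to 8 per comparison by smallest adjusted p, and up to 3 genes of each further list per comparison by smallest adjusted p. The marker lists were melanocyte, intestinal, simple epithelial, ovarian, basal breast and other cells. Alternatives were DESeq2 1.42.0, other size factors, other filters, a replicate block, summed clones, other controls and leaving out each library or clone. A difference among clones has 2 libraries per clone behind it.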

Additional observations from a re-analysis of the deposited data

Results flagged for a closer look

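In 7 cases, 1 library of a group stood apart from the others of its group by Dixon's criterion, out of 197 combinations of gene and group that were tested. Chance flags about 5% of groups. H19 was at 1.59 CPM in replicate 1 of A2058 7p-loss clone 2, against at most 0.437 CPM in the other 5 libraries. With hRASV12 and 1q loss, MCF10A clone 4 held 3 of the 7: H19 at 19.4 CPM and PEG10 at 169 CPM in replicate 1, and RTL1 at 0.64 CPM in replicate 2. In AGS 1q-loss, clone 4 had the highest MEST, at 159 CPM, and the lowest IGF2R, at 202 CPM against 269.6 to 277.2 CPM in the other 4 clones. CDKN1C was at 102 CPM in A2058 WT replicate 4, against 140.1 to 145.5 CPM in the other 3 WT libraries, still above all 1q-loss libraries.

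A pair of genes differed from their controls in opposite directions in different cell lines after loss of 1q. In each pair of comparisons, only the A2058 difference was called. INPP5F was higher in every AGS 1q-loss clone, with a log2 difference of 0.557, and lower in every A2058 1q-loss library, at -1.82. PLAGL1 was lower in every MCF10A 1q-loss library with hRASV12, at -0.282, and higher in every A2058 1q-loss library, at 1.23. H19 was also called in opposite directions, at 6.08 in A2058 and 3.23 in AGS, and at -3.35 in A2780 1q-loss. The A2780 difference was 0.49 with TK+ libraries as the only controls. That A2780 call supports nothing, as the WT levels were in view when the genes were listed. The difference between the lines was not tested for any of these genes.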

How the results depend on the processing

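Of the 35 calls of members in the comparisons, 22 held under every alternative run. Among them, the 8 of A2780 TK+, a comparison in view when the genes were listed, support nothing. The rest were all in A2058 1q-loss, where 49.6% of all genes were called. No call of another comparison held under every alternative. Where leaving out a library left a side or a clone with 1 library, that library was assumed to vary like the others in the fit. Of the 50 calls among clones 34 held. The direction changed under some alternative for H19 in A2780 1q-loss, which was called, and for TRAPPC9 and KCNK9 in HCT116 8q-loss, which were not. The H19 difference of A2780 1q-loss was 0.49 with TK+ libraries as the only controls. In HCT116 8q-loss, the TRAPPC9 difference (0.02) ranged from -0.23 to 0.35 over libraries left out, and was -0.04 without clone 1 replicate 1 and -0.02 without clone 2 replicate 2. The KCNK9 difference (-0.34) ranged from -2.33 to 0.51, and was 0.47 without clone 2 and 0.03 without clone 2 replicate 2. The cause was not tested in any of these.

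The number of members called moved by over 1.5 times in the following. In A2058 8q-loss (3) it was 1 with each clone summed and 0 with WT replicates 1 and 2 only or WT replicates 3 and 4 only. In AGS 1q-loss (2) it was 4 with DESeq2 and 0 with TK+ controls only. In A2780 1q-loss (1) it was 5 with DESeq2 (H19, PEG10, SGCE, PHLDA2 and IGF2R), 2 with no filter, 0 with each clone summed, 0 with TK+ controls only and 3 with WT controls only, which include H19 and MEST, whose WT levels were in view, and support nothing. It was 2 with DESeq2 in MCF10A hRASV12 1q-loss (0) and 3 with no filter for hRASV12 in WT (0). For hRASV12 in 1q-loss (2) it was 4 with DESeq2, 0 with no filter, 0 with each clone summed and 8 with the clone number as a block. Among clones, it was 9 with no filter in A2058 1q-loss (3), 17 with no filter in A2058 7p-loss (11), and 1 with DESeq2 and 1 with no filter in A2058 8q-loss (0). It was 6 with DESeq2 and 7 with no filter in MCF10A (3). The genes called in all in these clone tests were 1897 against 950 in A2058 1q-loss, 6531 against 4609 in A2058 7p-loss, 461 (DESeq2) and 840 (no filter) against 91 in A2058 8q-loss, and 1945 and 2621 against 1313 in MCF10A. In the comparisons, counts over all genes moved in the same settings. They were 217 (each clone summed), 79 (WT replicates 1 and 2) and 16 (WT replicates 3 and 4) in A2058 8q-loss, against 308. They were 2232 (DESeq2) and 167 (TK+ controls) in AGS, against 1131. In A2780 1q-loss they were 2574 (DESeq2), 1392 (no filter), 725 (each clone summed), 667 (TK+ controls) and 1302 (WT controls), against 1780. In MCF10A they were 496 (DESeq2) against 34 for hRASV12 1q-loss and 633 (no filter) against 237 for hRASV12 in WT. For hRASV12 in 1q-loss they were 806 (DESeq2), 112 (no filter), 0 (each clone summed) and 2160 (clone block), against 172. With no such move in members, they were 117 (DESeq2) and 133 (no filter) against 22 in HCT116, 684 (DESeq2) and 487 (no filter) against 308 in A2058 8q-loss, 567 (DESeq2) against 319 in MCF10A 1q-loss, and 13 (no filter) and 0 (each clone summed) against 34 in MCF10A hRASV12 1q-loss.

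With a library or clone left out, the count ranged from 0 to 3 in A2058 7p-loss, 0 to 4 in A2058 8q-loss, 0 to 4 in AGS, 0 to 5 in A2780 1q-loss, 8 to 14 in A2780 TK+, 0 to 1 in MCF10A hRASV12 1q-loss, 0 to 1 for hRASV12 in WT and 0 to 3 for hRASV12 in 1q-loss. Among clones it ranged from 1 to 4 in A2058 1q-loss, 0 to 1 in A2058 8q-loss, 0 to 10 in HCT116 and 1 to 4 in MCF10A, while over all genes it went from 950 to between 434 and 932, 91 to 202 and 552, 2737 to 235 and 6582, and 1313 to 822 and 1334. It also went from 4609 to between 2420 and 3624 among the A2058 7p-loss clones and from 3198 to 2027 and 4446 among those of A2780. The count over all genes, which gives the share called set beside the members, moved too: from 139 to between 71 and 898 in A2058 7p-loss, 308 to 119 and 783 in A2058 8q-loss, 22 to 0 and 117 in HCT116, 1131 to 97 and 1773 in AGS, 1780 to 983 and 1800 in A2780 1q-loss and 1669 to 1094 and 3278 in TK+. In MCF10A it moved from 319 to between 16 and 452 (1q-loss), 34 to 0 and 60 (hRASV12 1q-loss), 237 to 0 and 173 (hRASV12 in WT) and 172 to 9 and 504 (hRASV12 in 1q-loss). Reads in single digits for some members limit the precision of their fold changes.

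Same-numbered libraries deviated together with r from -0.142 to 0.42, and in no comparison with 3 or more sets was every r over 0.1, so the numbers were not taken to pair libraries. With the replicate block, the count was 0 in A2058 8q-loss, 0 in A2780 1q-loss, 2 for hRASV12 in WT and 1 for hRASV12 in 1q-loss. Among clones, the replicate block gave 10 in A2058 1q-loss, 18 in A2058 7p-loss, 8 in A2058 8q-loss, 2 in HCT116, without PHLDA2 (adjusted p = 0.069) and PPP1R9A (adjusted p = 0.0595), and 7 in MCF10A. It moved no other count of members by over 1.5 times. The block also ended the calls of KCNK9 in A2058 1q-loss (adjusted p = 0.0602) and of GRB10 for hRASV12 in 1q-loss (adjusted p = 0.0609). Over all genes the block gave 1 in A2058 7p-loss, 39 in A2058 8q-loss, 8 in HCT116, 2 in MCF10A hRASV12 1q-loss, 1550 in A2780 1q-loss, 711 for hRASV12 in WT and 74 for hRASV12 in 1q-loss. Among clones it gave 2479 in A2058 1q-loss, 7746 in A2058 7p-loss, 2940 in A2058 8q-loss, 2004 in HCT116 and 2193 in MCF10A.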
